A study of Homo sapiens with 8 samples.

Results

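The genes described here are the well expressed long non-coding RNAs of 143B cells, a human osteosarcoma line that grows as adherent tumour cells. They were chosen by level: the rows that the deposited table classes as lncRNA and whose mean over all 8 libraries was at least 5 FPKM (fragments per kilobase of transcript, scaled to library depth). The host genes of small nucleolar RNAs were set aside by name, 19 at that level. The rule left 182 members among 4561 lncRNA rows and 21123 genes, and all 182 passed the filter on low values and were tested. The samples formed a 2 × 2 design with 2 libraries per group, labelled biological replicates. Cells stably carrying a non-targeting hairpin (shControl, genotype labelled WT) or a hairpin against ZDHHC8 (shZDHHC8, labelled ZDHHC8 knockdown) received for 48 h either PBS as vehicle or cisplatin, which binds DNA and crosslinks it, and all 8 libraries carry batch 1. The sources used here give neither the dose of cisplatin nor how many hairpin sequences or clones were used.

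Long non-coding RNAs are transcripts longer than most small RNAs that are not read into protein. Some hold nuclear bodies together, some bind and occupy RNA-binding proteins in the cytoplasm, some are precursors from which microRNAs are cut, and many are transcribed from the opposite strand of a protein-coding gene or from a shared promoter. For most of the members below no role is established, and they are named without one. ZDHHC8 is a palmitoyltransferase, an enzyme that attaches palmitate to cysteines of other proteins.

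Some members are best known by short sequences they carry. NORAD (ENSG00000260032, chromosome 20, 36045618 to 36051018, minus strand) is an abundant cytoplasmic RNA that binds PUM2, a Pumilio protein that otherwise represses its target messenger RNAs. The longest GENCODE 29 transcript of NORAD, 5339 bases on GRCh38, held 15 matches to the Pumilio recognition element TGTANATA (read on the sense strand only). The next member, FTX, held 7 in 12267 bases and NEAT1 held 6 in 22743 bases, and 31 of the 177 members with a GENCODE 29 transcript held at least 1. The following 4 stretches of NORAD show an element that stands alone and 3 that lie 9 bases after the one before them, with the element in capitals and the name giving its first and last base in the transcript.
NORAD 1140 to 1147: cctcactactgTGTATATAgttgacaatgc
NORAD 1451 to 1458: tgtgtatatagTGTACATAaaggacagacg
NORAD 2648 to 2655: actgtatatatTGTATATAtaacggacaaa
NORAD 3284 to 3291: tgtgtatatagTGTATATAagcggacatag

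Other members hold microRNAs. The mature sequences below, from RefSeq on GRCh38.p14, are a selection from hosts whose level differed between groups or that share a seed. The seed, the bases from position 2 to 8 that pair with targets, is in capitals. Sequences of other hosts whose level also differed, FTX among them, are not shown. MIR100HG on chromosome 11 and MIRLET7BHG on chromosome 22 both hold let-7 microRNAs with the seed GAGGUAG. LINC00472 on chromosome 6 holds miR-30a and miR-30c, which share GUAAACA. CYTOR and MIR4435-2HG, at different places on chromosome 2, each hold a copy of miR-4435 with identical letters.
hsa-let-7a-5p (MIR100HG, MIRLET7BHG): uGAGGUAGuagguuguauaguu
hsa-let-7b-5p (MIRLET7BHG): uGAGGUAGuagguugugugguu
hsa-miR-100-5p (MIR100HG): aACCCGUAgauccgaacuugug
hsa-miR-125b-5p (MIR100HG): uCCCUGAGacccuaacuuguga
hsa-miR-22-3p (MIR22HG): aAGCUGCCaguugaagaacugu
hsa-miR-30a-5p (LINC00472): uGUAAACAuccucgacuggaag
hsa-miR-30c-5p (LINC00472): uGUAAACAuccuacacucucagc
hsa-miR-4435 (CYTOR, MIR4435-2HG): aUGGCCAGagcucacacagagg

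RefSeq promoter windows of 300 bases, from 250 before to 50 after a start, could be matched by symbol for 78 members. The AP-1 letters TGACTCA, searched on both strands, lay in 7 of these 78 windows and in 4.95% of 35116 windows of all genes. Among the 7 are CYTOR and MIR4435-2HG, whose windows share most of their letters. The CYTOR window holds 2 matches, and that of MIR4435-2HG ends before the second. The antioxidant response element core TGACNNNGC, which can overlap TGACTCA, lay in 17 of 78 against 13.3%, the CCAAT box in 37 of 78 against 34.6%, and the TATA box letters TATAAA in 2 of 78 against 11.5%. Shown here are the windows of CYTOR (chr2:87455177-87455476, plus strand), the member with 2 AP-1 matches, and of LINC01629 (chr14:76959388-76959687, plus strand), a member called lower with cisplatin that held both an AP-1 match and a TGACNNNGC match. Matches to the AP-1, TGACNNNGC, CACGTG, TGACGTCA and TATAAA letters are in capitals, and both windows were chosen after the matches and the values were seen.
CYTOR: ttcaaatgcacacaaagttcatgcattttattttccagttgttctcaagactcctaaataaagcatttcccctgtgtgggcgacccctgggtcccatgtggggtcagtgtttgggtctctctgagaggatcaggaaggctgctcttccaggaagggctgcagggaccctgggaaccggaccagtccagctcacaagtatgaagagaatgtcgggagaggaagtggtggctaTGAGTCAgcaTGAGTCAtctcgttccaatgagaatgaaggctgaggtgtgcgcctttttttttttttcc
LINC01629: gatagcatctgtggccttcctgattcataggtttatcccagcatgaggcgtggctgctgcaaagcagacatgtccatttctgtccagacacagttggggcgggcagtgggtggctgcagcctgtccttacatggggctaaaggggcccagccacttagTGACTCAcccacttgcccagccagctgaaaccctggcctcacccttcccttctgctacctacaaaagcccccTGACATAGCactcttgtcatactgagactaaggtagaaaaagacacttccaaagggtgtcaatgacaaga
A match is a run of letters and not a measured binding site.

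Across the series, libraries of a group correlated with Pearson's r of 0.995 to 0.996 in log2 values over the tested genes, and libraries of different groups with 0.939 to 0.978. ZDHHC8 itself measured 23.7 and 23.1 FPKM in shControl vehicle, 14.3 and 9.81 in shZDHHC8 vehicle, 32.3 and 32.8 in shControl cisplatin and 23.5 and 22.3 in shZDHHC8 cisplatin libraries. It was lower with the hairpin in both treatments, by -0.92 ± 0.13 (SE, limma adjusted p = 0.000472) in vehicle and -0.49 ± 0.13 (limma adjusted p = 0.0102) under cisplatin on the log2 scale. The shZDHHC8 cisplatin libraries held about as much ZDHHC8 transcript as the shControl vehicle libraries. Of 8 mesenchymal and osteoblast markers in the table, 5 reached 1 FPKM. VIM had group means of 1761, 2009, 1200 and 1272 FPKM in shControl vehicle, shZDHHC8 vehicle, shControl cisplatin and shZDHHC8 cisplatin, RUNX2 12.9, 10.3, 9.197 and 11.5, COL1A1 5.08, 2.38, 1.73 and 3.20, and SPARC 4.74, 8.39, 3.96 and 10.3, while IBSP and BGLAP averaged 0.251 and 0.152 over the 8 libraries. Of 5 epithelial markers 4 reached 1 FPKM. In the same order of groups KRT8 had means of 649, 445, 552 and 420 FPKM, KRT18 168, 164, 204 and 136, EPCAM 6.39, 5.08, 3.46 and 2.47, and CLDN4 3.18, 12.04, 4.06 and 14.6, while CDH1, which defines epithelium, averaged 0.122. Summed over a list, the markers thus moved with treatment and hairpin, between 1215 and 2139 FPKM for the mesenchymal and between 564 and 831 FPKM for the epithelial list, and their part in the results below was not tested. The summed level of 4 blood and endothelial markers lay between 0.0513 and 0.273 FPKM, with none at 1 FPKM in any library. In these bulk libraries, fewer cells of a type and less RNA per cell cannot be told apart. Libraries were enriched for poly(A) tails and their strandedness is not stated, so values of members that overlap another gene, 127 of 182, or that have a near-identical copy, such as CYTOR and MIR4435-2HG, are uncertain.

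The members spanned a wide range of levels. The most abundant was LINC02582 (chromosome 18, 73324941 to 73349879, plus strand), with 357 and 365 FPKM in shControl vehicle, 303 and 326 in shZDHHC8 vehicle, 226 and 224 in shControl cisplatin and 235 and 235 in shZDHHC8 cisplatin libraries. It was highest in both shControl vehicle libraries and lowest under cisplatin. Next by mean over the libraries came NEAT1 with 87.0 FPKM, NORAD with 73.6, AC105460.1 with 71.2, MALAT1 with 69.4 and LINC02474 with 61.5, followed by LINC02167 with 48.9, CYTOR with 43.4, APCDD1L-DT with 36.9, MIR4435-2HG with 36.6, AL137800.1 with 35.6 and AL161431.1 with 33.4. Only 6 members reached a mean of 50 FPKM, 28 reached 20 and 72 reached 10, which left 110 between 5 and 10. At the threshold, AL713998.1 (5.002), LINC01116 (5.04) and LBX2-AS1 (5.17) lay just inside, while ZNF529-AS1 (4.996), DLEU1 (4.996) and ERVK13-1 (4.98) lay just outside. A total of 119 members had a mean of at least 5 in each of the 4 groups, 33 in 3 groups, 27 in 2 and 3 in 1. The 63 members with some group under 5 entered through the groups where they were higher, so that differences between groups were built into their choice.

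**Figure D1:**
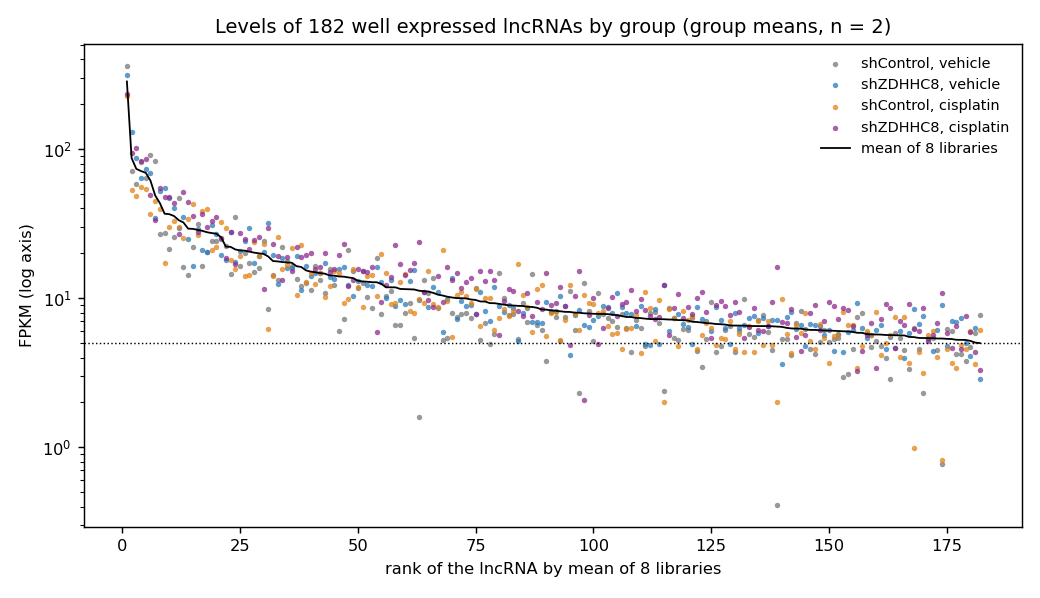
Group means in FPKM (log axis, n = 2 libraries each) of the 182 members in order of their mean over 8 libraries (black line); the dotted line marks the threshold of 5 FPKM. LINC02582 stands alone at the left, most members lie between 5 and 10 FPKM, and a few points far below the line are groups in which a member is nearly absent.

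Summed over the members, the level was 2452 and 2501 FPKM in the shControl vehicle libraries, 2749.6 and 2744 in shZDHHC8 vehicle, 2402 and 2366 in shControl cisplatin and 2965 and 3025 in shZDHHC8 cisplatin libraries. Both shZDHHC8 groups therefore lay above both shControl groups without overlap. The column totals of all genes also differed between libraries. As a share of the column total the members took 0.663% and 0.686% in shControl vehicle and 0.716% and 0.71% in shZDHHC8 vehicle libraries. Under cisplatin they took 0.654% and 0.655% in shControl and 0.758% and 0.78% in shZDHHC8 libraries, again with the highest share in the latter. The median member measured 7.41 and 7.41 FPKM in shControl vehicle and 9.84 and 9.89 FPKM in shZDHHC8 cisplatin libraries. The summed level of the 19 small nucleolar RNA hosts that the rule leaves out followed another order, with 461 and 432 FPKM in shControl vehicle and 1559 and 1465 FPKM in shControl cisplatin libraries.

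The members shared features that the rule did not use. By name, 62 carried only a clone name, 47 an antisense name, 32 a LINC number, 8 a name as divergent transcript, 4 as microRNA host and 2 as intronic or overlapping transcript. GENCODE 29, on the same build as the table but not necessarily the same release, held 177 of them, 73 as lincRNA, 51 as antisense and 43 as processed transcript. Their longest GENCODE 29 transcript had a median of 2213 bases and 3 exons, against 872 bases and 2 exons in the other lncRNA rows and 3589 bases and 8 exons in protein-coding genes with a mean of at least 5 FPKM. Chromosome 19 held 25 members, or 13.7%, against 5.37% of the other lncRNA rows and 7.54% of those protein-coding genes. By the table's coordinates 99 members overlapped a gene on the opposite strand, 63 a gene on the same strand and 91 a protein-coding gene, while 55 overlapped none. The starts of 48 members lay within 2000 bases of a protein-coding start on the opposite strand.

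The first comparison asked how the members responded to cisplatin in cells with the control hairpin. LINC00973, SFTA1P and PVT1 rose most, and LINC02474, LINC02432 and AC004846.1 fell most. In all, 64 members rose and 42 fell, or 35.2% and 23.1%, against 36.8% and 25.4% of all 13495 tested genes (limma on log2(FPKM + 1), Benjamini-Hochberg adjusted p under 0.05). The shares were therefore close to the background in both directions. Protein-coding genes with a mean of at least 5 FPKM rose in 43.6% and fell in 25.1% of cases, and all 1154 tested lncRNA rows rose in 21.8% and fell in 21.8%. The median log2 change was 0.083 in the members and 0.0696 in all tested genes, and 11 members rose and 5 fell by at least 1 on the log2 scale. Each log2 change compares group means of log2(FPKM + 1), on which changes of low genes come out too small, and p-values measure only the spread between labelled replicates, which may be technical.

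LINC00973 (ENSG00000240476, chromosome 3, 98981058 to 98983096, plus strand) measured 1.69 and 1.51 FPKM with vehicle and 10.8 and 9.04 FPKM with cisplatin in shControl cells, a log2 change of 2.06 ± 0.10 (limma adjusted p = 9.27e-07). SFTA1P, a pseudogene-derived transcript of a surfactant-associated gene, went from 5.61 and 4.89 to 22.9 and 19.2 FPKM, a log2 change of 1.82 ± 0.11 (limma adjusted p = 1.86e-06). PVT1, the transcript next to the MYC oncogene, went from 4.82 and 5.80 to 16.2 and 17.6 FPKM, a log2 change of 1.51 ± 0.084 (limma adjusted p = 1.52e-06). The largest rises and falls named in each comparison of 2 groups were picked among called members whose groups do not overlap, so that their lack of overlap is a condition of being named. CASC19, from the same stretch of chromosome 8, rose by 1.23 ± 0.064 (limma adjusted p = 1.11e-06) from 7.97 and 7.75 FPKM to 20.4 and 19.04 FPKM, and AC244153.1 rose by 1.19 ± 0.10 (limma adjusted p = 1.22e-05) from 12.8 and 15.7 to 31.2 and 36.4 FPKM. UCA1, a transcript first described in urothelial cancer, measured 25.5 and 18.6 FPKM with vehicle and 42.7 and 42.6 FPKM with cisplatin and rose by 0.94 ± 0.15 (limma adjusted p = 0.00064).

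Among the falls, LINC02474 (chromosome 1, 221966341 to 221984964, plus strand) went from 89.8 and 92.6 FPKM to 36.3 and 36.6 FPKM, a log2 change of -1.30 ± 0.058 (limma adjusted p = 5.22e-07). LINC02432 went from 14.3 and 14.6 to 5.94 and 5.85 FPKM, a log2 change of -1.16 ± 0.068 (limma adjusted p = 1.96e-06), and AC004846.1 from 35.6 and 33.9 to 15.9 and 15.3 FPKM, a log2 change of -1.11 ± 0.068 (limma adjusted p = 2.56e-06). The replicates of all 3 lay close together. ANKRD10-IT1, named for lying inside the gene ANKRD10, fell from 19.4 and 22.3 to 9.36 and 10.3 FPKM, a log2 change of -1.01 ± 0.090 (limma adjusted p = 1.90e-05). BAIAP2-DT, divergent from BAIAP2, fell from 9.27 and 10.3 to 4.45 and 4.31 FPKM, a log2 change of -1.01 ± 0.078 (limma adjusted p = 9.14e-06). The most abundant members also lay on this side: LINC02582 fell by 0.68 ± 0.045 (limma adjusted p = 4.12e-06), LINC02167 by 0.87 ± 0.071 (limma adjusted p = 1.26e-05), AC105460.1 by 0.55 ± 0.063 (limma adjusted p = 8.09e-05), AL161431.1 by 0.62 ± 0.049 (limma adjusted p = 1.06e-05) and APCDD1L-DT by 0.64 ± 0.061 (limma adjusted p = 3.07e-05) on the log2 scale. MALAT1 (-0.25 ± 0.11, limma adjusted p = 0.0854) and NEAT1 (-0.40 ± 0.20, limma adjusted p = 0.114) were not called.

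In shZDHHC8 cells cisplatin raised AL118516.1, LINC00973, LINC00520, UCA1 and NOP14-AS1 most and lowered NECTIN3-AS1 and LINC01629 most. Here 79 members rose and 20 fell, or 43.4% and 11%, against 36.9% and 13.6% of all tested genes, with a median log2 change of 0.2067 in the members and 0.1322 in all tested genes. Of the protein-coding genes at that level 43.1% rose and 14.1% fell, and of all tested lncRNA rows 30.7% rose and 6.59% fell. The median of those lncRNA rows was 0.1803. Scaling the libraries by median-of-ratios size factors moved the median of all tested genes from 0.1322 to 0.0047, that of the members to 0.0761, and the counts to 50 members higher and 32 lower, against 21.8% and 22.7% of all genes. The balance of rises and falls in this comparison therefore changed with the scaling.

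AL118516.1 (chromosome 22, 46761894 to 46762563, minus strand) measured 7.82 and 9.79 FPKM with vehicle and 21.3 and 23.9 FPKM with cisplatin, a log2 change of 1.27 ± 0.11 (limma adjusted p = 5.58e-05). LINC00973 reached its highest level of any group, from 8.73 and 10.7 to 23.9 and 23.4 FPKM, a log2 change of 1.21 ± 0.10 (limma adjusted p = 5.51e-05). LINC00520 went from 7.53 and 6.70 to 16.4 and 16.04 FPKM, a log2 change of 1.09 ± 0.081 (limma adjusted p = 2.94e-05). UCA1 rose by 1.06 ± 0.15 (limma adjusted p = 0.000607), from 17.5 and 15.3 to 40.3 and 30.9 FPKM, with its 2 cisplatin libraries further apart than its vehicle libraries. NOP14-AS1, antisense to NOP14, rose by 1.01 ± 0.085 (limma adjusted p = 4.79e-05), from 6.53 and 7.46 to 14.5 and 15.7 FPKM.

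NECTIN3-AS1 (chromosome 3, 110888384 to 111071553, minus strand), antisense to the start of the adhesion gene NECTIN3, went from 16.5 and 15.7 to 6.45 and 5.43 FPKM, a log2 change of -1.31 ± 0.084 (limma adjusted p = 1.49e-05). LINC01629 went from 9.28 and 9.28 to 4.22 and 2.32 FPKM, a log2 change of -1.30 ± 0.17 (limma adjusted p = 0.000403), with its cisplatin libraries unequal. AC008736.1 fell by 0.78 ± 0.088 (limma adjusted p = 0.000196) and was not called in shControl cells (-0.06 ± 0.088, limma adjusted p = 0.57). AL669830.2 fell by 0.72 ± 0.19 (limma adjusted p = 0.0116), a call that ended without shZDHHC8 vehicle replicate 1 or shZDHHC8 cisplatin replicate 1 (adjusted p 0.0753 and 0.0839). AC004870.2 fell by 0.58 ± 0.15 (limma adjusted p = 0.0127), a call that ended without replicate 2 of either shZDHHC8 group (adjusted p 0.0599 and 0.0823).

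Of the 64 members that rose with cisplatin in shControl cells and the 79 that rose in shZDHHC8 cells, 48 were in both lists, and 15 were in both lists of falls, of 42 and 20. No library is shared between these 2 comparisons. The shared rises were 75% and 60.8% of the members' lists, against 69% and 68.9% over all tested genes, and the shared falls 35.7% and 75%, against 39.7% and 73.8%. CASC19 and AL669830.2 were the 2 members called higher in shControl and lower in shZDHHC8 cells, and 5 were called lower in shControl and higher in shZDHHC8 cells, among them NORAD, AC105460.1 and AC012306.2. The rise of AL669830.2 in shControl cells was not called without either shControl vehicle library or without shControl cisplatin replicate 2 (adjusted p 0.0535 to 0.218). A further 22 fell in shControl cells only by the call, 26 rose in shZDHHC8 cells only by the call, and 47 were called in neither.

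**Figure D2:**
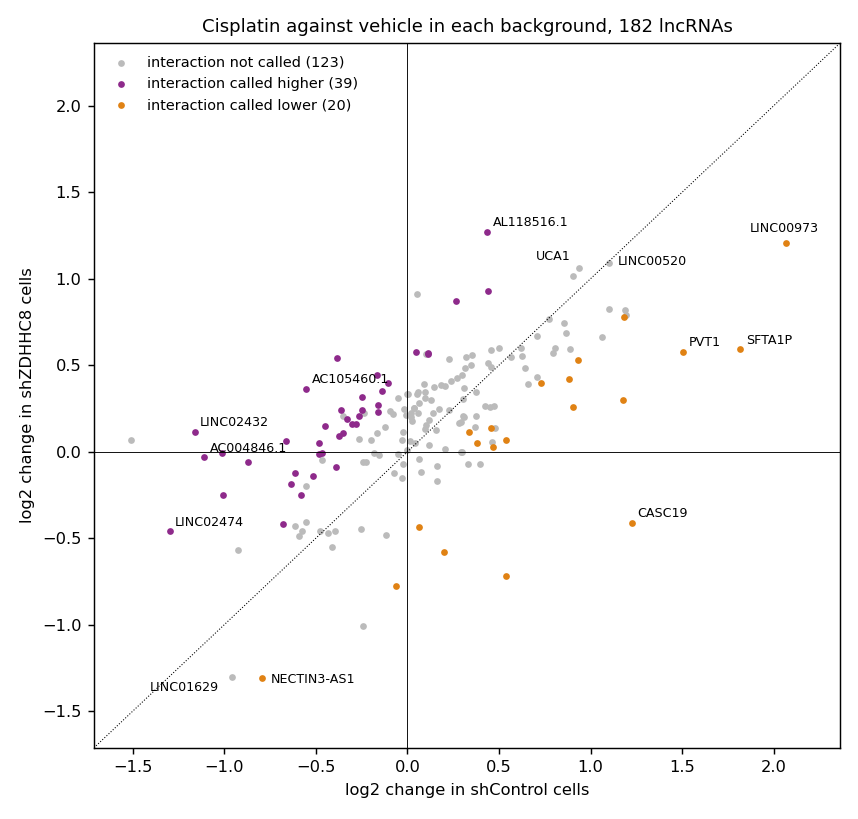
Each point is a member, with its log2 change with cisplatin in shControl cells on the horizontal axis and in shZDHHC8 cells on the vertical axis; the dotted line marks equal changes, and colours mark the 39 members with a higher and the 20 with a lower change in shZDHHC8 cells by the interaction test. SFTA1P, PVT1 and CASC19 lie far below the line and LINC02432 and AC004846.1 above it.

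The interaction tests the difference itself, as the cisplatin change in shZDHHC8 cells minus that in shControl cells. It was called above 0 for 39 members and below 0 for 20, or 21.4% and 11%, against 17% and 13.4% of all tested genes, with a median of 0.1218 against 0.0392. Called above and below 0 were 18.2% and 17% of the protein-coding genes at that level and 17.4% and 5.2% of all tested lncRNA rows. The median of all tested lncRNA rows was 0.1818. With median-of-ratios scaling the counts were 31 and 28, against 12.7% and 18.9% of all genes, so that the excess of positive over negative calls changed with the scaling.

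Below 0 the interaction was led by CASC19 (-1.64 ± 0.091, limma adjusted p = 2.57e-05), AL669830.2 (-1.25 ± 0.26, limma adjusted p = 0.00845), SFTA1P (-1.23 ± 0.15, limma adjusted p = 0.000775), PVT1 (-0.93 ± 0.12, limma adjusted p = 0.000951) and AL138828.1 (-0.88 ± 0.092, limma adjusted p = 0.000386). CASC19 measured 7.97 and 7.75 FPKM in shControl vehicle, 12.4 and 13.4 in shZDHHC8 vehicle, 20.4 and 19.04 in shControl cisplatin and 9.67 and 9.19 in shZDHHC8 cisplatin libraries. It rose with cisplatin in shControl cells and fell by 0.41 ± 0.064 (limma adjusted p = 0.000978) in shZDHHC8 cells. SFTA1P measured 5.61 and 4.89 FPKM in shControl vehicle, 5.41 and 6.49 in shZDHHC8 vehicle, 22.9 and 19.2 in shControl cisplatin and 9.36 and 9.51 in shZDHHC8 cisplatin libraries, and the shControl cisplatin libraries stood above all others. PVT1 was likewise highest in shControl cisplatin libraries, with 4.82 and 5.80 FPKM in shControl vehicle, 5.04 and 5.27 in shZDHHC8 vehicle, 16.2 and 17.6 in shControl cisplatin and 8.12 and 8.23 in shZDHHC8 cisplatin libraries. AL138828.1 measured 5.79 and 6.20 FPKM in shControl vehicle, 14.9 and 16.5 in shZDHHC8 vehicle, 14.7 and 14.9 in shControl cisplatin and 19.3 and 19.7 in shZDHHC8 cisplatin libraries, so that the shControl vehicle libraries were the low ones. AL669830.2 measured 4.80 and 5.55 FPKM in shControl vehicle, 6.69 and 5.64 in shZDHHC8 vehicle, 6.37 and 9.87 in shControl cisplatin and 2.82 and 3.95 in shZDHHC8 cisplatin libraries, with its shControl cisplatin libraries unequal.

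Above 0 it was led by LINC02432 (1.28 ± 0.10, limma adjusted p = 9.92e-05), AC004846.1 (1.08 ± 0.10, limma adjusted p = 0.000198), ANKRD10-IT1 (1.01 ± 0.13, limma adjusted p = 0.000912), AC012306.2 (0.92 ± 0.13, limma adjusted p = 0.00168) and AC105460.1 (0.92 ± 0.089, limma adjusted p = 0.000273). LINC02432 measured 14.3 and 14.6 FPKM in shControl vehicle, 7.20 and 6.73 in shZDHHC8 vehicle, 5.94 and 5.85 in shControl cisplatin and 7.22 and 8.03 in shZDHHC8 cisplatin libraries. AC004846.1 (chromosome 14, 73242651 to 73245979, minus strand) measured 35.6 and 33.9 FPKM in shControl vehicle, 16.4 and 18.5 in shZDHHC8 vehicle, 15.9 and 15.3 in shControl cisplatin and 17.6 and 16.5 in shZDHHC8 cisplatin libraries, and ANKRD10-IT1 measured 19.4 and 22.3 FPKM in shControl vehicle, 13.2 and 11.3 in shZDHHC8 vehicle, 9.36 and 10.3 in shControl cisplatin and 12.1 and 12.2 in shZDHHC8 cisplatin libraries. In these 3 the shControl vehicle libraries stood above all others and the other 3 groups lay close together. In shZDHHC8 cells the cisplatin change was not called for LINC02432 (0.11 ± 0.068, limma adjusted p = 0.191), AC004846.1 (-0.03 ± 0.068, limma adjusted p = 0.716) or ANKRD10-IT1 (-0.01 ± 0.090, limma adjusted p = 0.958). AC105460.1 (chromosome 4, 103550586 to 103559277, minus strand) crossed over, with 80.4 and 83.4 FPKM in shControl vehicle, 67.99 and 60.8 in shZDHHC8 vehicle, 56.9 and 54.1 in shControl cisplatin and 85.6 and 80.4 in shZDHHC8 cisplatin libraries. AC012306.2 measured 5.08 and 5.06 FPKM in shControl vehicle, 5.97 and 6.33 in shZDHHC8 vehicle, 4.14 and 3.21 in shControl cisplatin and 9.60 and 9.16 in shZDHHC8 cisplatin libraries, highest in both shZDHHC8 cisplatin libraries.

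The knockdown in vehicle raised more members than it lowered. LINC00520, LINC02154, LINC00973, LINC01705 and IGFL2-AS1 rose most, and AL356804.1, LINC02167 and AL713998.1 fell most. In all, 81 members rose and 33 fell, or 44.5% and 18.1%, against 26.7% and 25% of all tested genes. The share of rises was above and the share of falls below the background, with a median log2 change of 0.1904 in the members and 0.0152 in all tested genes. Of all 1154 tested lncRNA rows 26.3% rose and 13.6% fell, and of protein-coding genes with a mean of at least 5 FPKM 31.8% rose and 26.4% fell. The median of those lncRNA rows was 0.1239. Among the 119 members with every group mean at 5 or more, 51 rose and 20 fell. Scaled to a common column total, 72 members rose and 39 fell, against 21.5% and 30% of all tested genes. With median-of-ratios scaling 81 rose and 34 fell, against 26.6% and 26%.

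LINC00520 (ENSG00000258791, chromosome 14, 55781132 to 55796731, minus strand) measured 0.472 and 0.350 FPKM in shControl vehicle and 7.53 and 6.70 FPKM in shZDHHC8 vehicle libraries, a log2 change of 2.52 ± 0.081 (limma adjusted p = 2.47e-07). LINC02154 (chromosome X, 13266048 to 13303452, minus strand) measured 0.807 and 0.749 and 8.64 and 9.27 FPKM in the same groups, a log2 change of 2.49 ± 0.10 (limma adjusted p = 4.77e-07). Both were nearly absent from shControl vehicle libraries, and entered the set through the shZDHHC8 groups. LINC00973 rose by 2.04 ± 0.10 (limma adjusted p = 2.16e-06), from 1.69 and 1.51 to 8.73 and 10.7 FPKM. LINC01705 (chromosome 1, 222010825 to 222064773, minus strand) rose by 1.97 ± 0.13 (limma adjusted p = 7.79e-06), from 2.73 and 2.06 to 12.9 and 11.6 FPKM. LINC01705 lay below the threshold of the set in both shControl groups and also entered through the shZDHHC8 groups. For these members a higher level with the hairpin was thus built into their choice. IGFL2-AS1 (chromosome 19, 46189029 to 46203160, minus strand), named as antisense to a growth factor-like gene, rose by 1.79 ± 0.064 (limma adjusted p = 3.41e-07), from 8.87 and 8.05 to 30.7 and 32.8 FPKM. By the table's coordinates it overlapped the lncRNA AC006262.1 and the pseudogene IGFL1P1 on the opposite strand, and no protein-coding gene.

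AL356804.1 fell by 1.24 ± 0.078 (limma adjusted p = 5.80e-06) on the log2 scale, from 11.5 and 10.8 to 4.32 and 3.98 FPKM. LINC02167 (chromosome 16, 35743268 to 35756515, plus strand) fell by 1.23 ± 0.071 (limma adjusted p = 3.99e-06), from 83.2 and 82.3 to 33.5 and 35.8 FPKM, and AL713998.1 by 1.18 ± 0.071 (limma adjusted p = 4.59e-06), from 7.72 and 7.79 to 3.00 and 2.72 FPKM. LINC02432 (-0.96 ± 0.068, limma adjusted p = 1.09e-05) and AC004846.1 (-0.95 ± 0.068, limma adjusted p = 1.12e-05) followed.

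**Figure D3:**
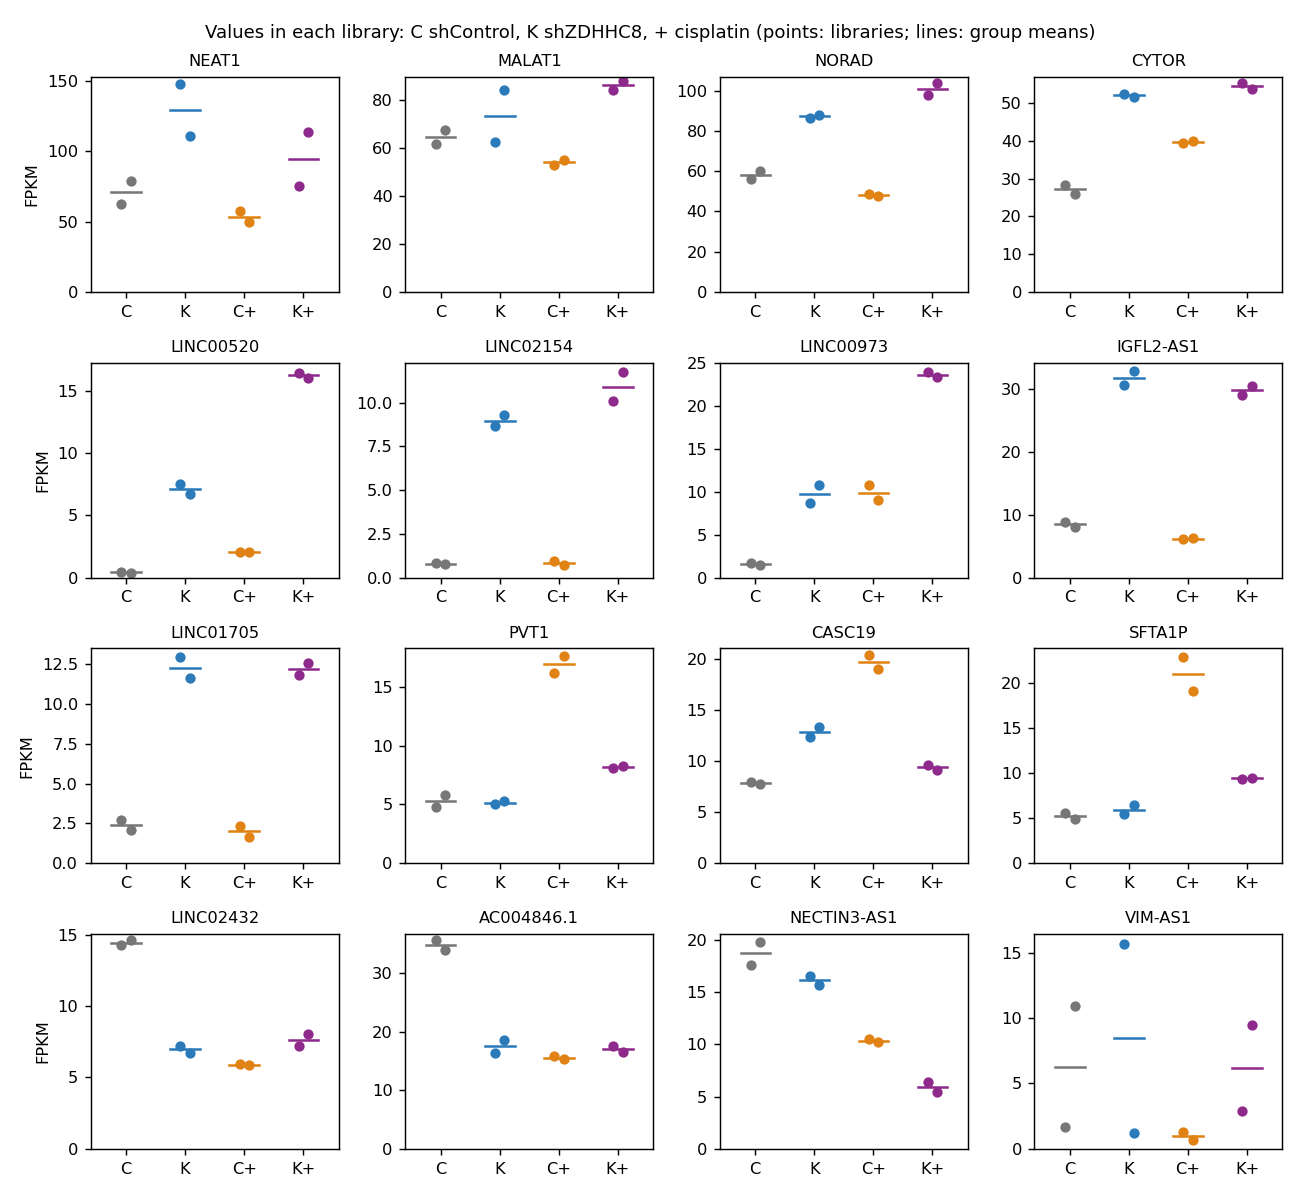
FPKM of 16 members in each library (points) with group means (lines); C is shControl, K is shZDHHC8, a plus sign marks cisplatin, and each vertical axis starts at 0 with its own range. LINC00520, LINC02154, LINC01705 and IGFL2-AS1 are high in both K groups, SFTA1P and PVT1 are highest in C+, and the replicates of VIM-AS1 lie far apart in 3 groups.

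Under cisplatin the knockdown raised 100 members and lowered 33, or 54.9% and 18.1%, against 33.8% and 27.6% of all tested genes. The median log2 change was 0.2958 in the members, 0.2964 in all tested lncRNA rows and 0.0423 in all tested genes. The members' median was thus that of lncRNA rows in general. Of the protein-coding genes at that level 35.6% rose and 30.2% fell. Of all tested lncRNA rows 47.4% rose and 12.2% fell. Scaling to a common column total or by median-of-ratios gave 89 higher and 39 lower in both cases, against 27.6% of all genes higher with either scaling. Of all genes 34.2% were lower with a common total and 33.9% with median-of-ratios, so that falls outnumbered rises in this background. By name class, 29 of the 47 antisense-named members rose and 7 fell, 17 of the 32 LINC-numbered members rose and 7 fell, and 6 of the 8 divergent-named members rose with none called lower.

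The largest rises were again LINC02154 (2.70 ± 0.10, limma adjusted p = 2.84e-07), from 0.933 and 0.718 to 10.1 and 11.7 FPKM, and LINC00520 (2.51 ± 0.081, limma adjusted p = 1.94e-07), from 2.02 and 2.01 to 16.4 and 16.04 FPKM. LINC01705 (2.15 ± 0.13, limma adjusted p = 3.59e-06) went from 2.37 and 1.63 to 11.8 and 12.6 FPKM and IGFL2-AS1 (2.09 ± 0.064, limma adjusted p = 1.39e-07) from 6.18 and 6.22 to 29.1 and 30.4 FPKM. APCDD1L-DT (chromosome 20, 58515379 to 58619888, plus strand), divergent from APCDD1L, went from 16.3 and 18.1 to 46.6 and 49.5 FPKM, a log2 change of 1.43 ± 0.061 (limma adjusted p = 7.19e-07).

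The falls under cisplatin were led by AC016026.1, whose values 9.36 and 11.6 FPKM in shControl cisplatin and 1.20 and 2.96 FPKM in shZDHHC8 cisplatin libraries gave a log2 change of -1.95 ± 0.55 (limma adjusted p = 0.0134). That call ended without shControl cisplatin replicate 2 or shZDHHC8 cisplatin replicate 1 (adjusted p 0.0599 and 0.0893), and its shZDHHC8 vehicle libraries measured 11.3 and 1.88 FPKM. AL356804.1 fell by 1.18 ± 0.078 (limma adjusted p = 5.25e-06), SFTA1P by 1.07 ± 0.11 (limma adjusted p = 4.07e-05), AL669830.2 by 1.04 ± 0.19 (limma adjusted p = 0.00125) and CASC19 by 0.99 ± 0.064 (limma adjusted p = 4.62e-06). PVT1 fell by 0.96 ± 0.084 (limma adjusted p = 2.20e-05). SFTA1P, CASC19 and PVT1 all stood highest in shControl cisplatin libraries, and in vehicle SFTA1P (0.15 ± 0.11, limma adjusted p = 0.259) and PVT1 (-0.03 ± 0.084, limma adjusted p = 0.767) were not called.

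Of the 81 members that rose with the knockdown in vehicle and the 100 that rose under cisplatin, 69 were in both lists, and 16 were in both lists of falls, of 33 and 33. These 2 comparisons share no library. The shared rises were 85.2% and 69% of the members' lists, against 69.6% and 54.9% over all tested genes, and the shared falls 48.5% of each, against 64.6% and 58.5%. CASC19 was the member called higher in vehicle and lower under cisplatin, and 8 were called lower in vehicle and higher under cisplatin, among them LINC02474, LINC02432, AC105460.1, ANKRD10-IT1, BAIAP2-DT and LINC00511. The calls under cisplatin ended for ANKRD10-IT1 without shControl cisplatin replicate 1 or either shZDHHC8 cisplatin library (adjusted p 0.0774 to 0.125) and for BAIAP2-DT without either shControl cisplatin library or shZDHHC8 cisplatin replicate 2 (0.0522 to 0.147). For LINC00511 the fall in vehicle was not called without shControl vehicle replicate 2 (0.0688), nor the rise under cisplatin without replicate 2 of either cisplatin group (0.0645 and 0.0657). Over the 4 comparisons of 2 groups, 37 members were called in each, and counting the interaction, 15 were called in none.

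**Figure D4:**
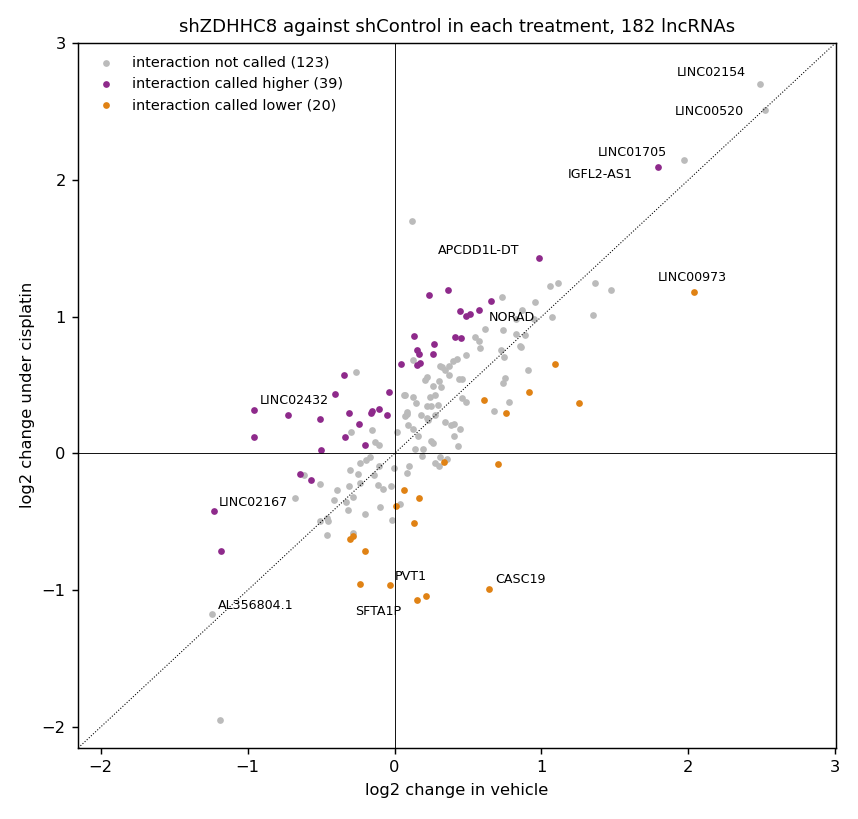
Each point is a member, with the log2 difference of shZDHHC8 from shControl cells in vehicle on the horizontal axis and under cisplatin on the vertical axis; the dotted line marks equal differences and colours are those of the interaction test. LINC02154, LINC00520, LINC01705 and IGFL2-AS1 lie at the upper right in both treatments, and PVT1, SFTA1P and CASC19 lie low on the vertical axis.

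**Figure D5:**
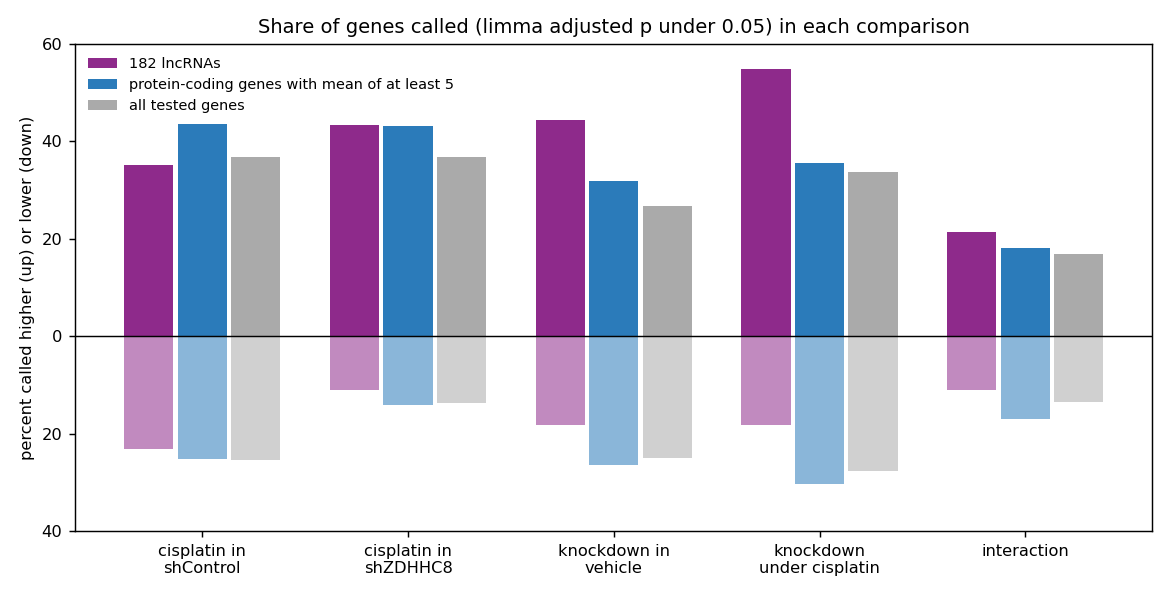
Bars give the percent of genes called higher (upward, solid) and lower (downward, pale) in each comparison for the 182 members, for protein-coding genes with a mean of at least 5 FPKM and for all 13495 tested genes. The members' bars for rises stand above the other bars in both knockdown comparisons, at 44.5% and 54.9%, and below the protein-coding bar for cisplatin in shControl cells. All tested lncRNA rows, of which 26.3% and 47.4% rose in the knockdown comparisons, are not drawn.

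Among RNAs of nuclear bodies, NEAT1 is the scaffold of paraspeckles and MALAT1 collects in nuclear speckles. NEAT1 (chromosome 11, 65422774 to 65445540, plus strand) measured 62.7 and 79.02 FPKM in shControl vehicle, 148 and 111 in shZDHHC8 vehicle, 57.3 and 49.5 in shControl cisplatin and 75.6 and 114 in shZDHHC8 cisplatin libraries. It was higher in shZDHHC8 cells in vehicle (0.85 ± 0.20, limma adjusted p = 0.00684) and under cisplatin (0.79 ± 0.20, limma adjusted p = 0.00802), but its replicates were unequal and each call rested on 1 library, with adjusted p 0.0538 without shZDHHC8 vehicle replicate 1 and 0.0566 without shZDHHC8 cisplatin replicate 2. MALAT1, 52147 bases downstream, measured 61.5 and 67.3 FPKM in shControl vehicle, 62.5 and 84.02 in shZDHHC8 vehicle, 52.9 and 54.9 in shControl cisplatin and 84.2 and 87.6 in shZDHHC8 cisplatin libraries, and was higher in shZDHHC8 cells under cisplatin (0.66 ± 0.11, limma adjusted p = 0.00104) and not called in vehicle (0.17 ± 0.11, limma adjusted p = 0.244). MALAT1 and the long form of NEAT1 are processed to ends without a standard poly(A) tail, and these libraries were selected for such tails. Of 18 paraspeckle protein genes, 9 fell and none rose with the knockdown in vehicle, with a median of -0.1915, and under cisplatin 12 fell and 3 rose, with a median of -0.2882, where 25% and 27.6% of all tested genes fell and 26.7% and 33.8% rose. With cisplatin 7 of them rose and 2 fell in shControl cells, and 2 rose and 4 fell in shZDHHC8 cells, where 36.8% and 36.9% of all tested genes rose and 25.4% and 13.6% fell. SFPQ, a core paraspeckle protein, measured 114 and 112 FPKM in shControl vehicle and 89.8 and 87.1 in shZDHHC8 vehicle libraries (-0.35 ± 0.041, limma adjusted p = 0.00015), and 133 and 133 and 88.1 and 88.9 FPKM under cisplatin (-0.58 ± 0.041, limma adjusted p = 7.15e-06). NONO, its partner, rose with the knockdown under cisplatin by 0.20 ± 0.045 (limma adjusted p = 0.00473).

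JPX and FTX are transcripts of the X-inactivation centre that overlap on opposite strands. XIST, 87711 bases from FTX, is also a member but was not picked by the rule for naming, and its values are not given here. JPX rose with cisplatin in shControl cells from 13.2 and 11.2 to 15.8 and 14.8 FPKM, a log2 change of 0.31 ± 0.079 (limma adjusted p = 0.00839) and a call that ended without shControl vehicle replicate 2 or shControl cisplatin replicate 1 (adjusted p 0.063 and 0.0524). FTX fell with cisplatin in shControl cells by 0.59 ± 0.11 (limma adjusted p = 0.00177) and in shZDHHC8 cells by 0.49 ± 0.11 (limma adjusted p = 0.0071), from 6.16 and 5.87 to 3.40 and 3.91 FPKM and from 6.01 and 7.96 to 4.51 and 4.78 FPKM. Neither was called for the knockdown in either treatment. The list of nuclear body and chromatin RNAs held 6 tested genes, 4 of them members. TUG1, outside the members, is in this list and is classed as protein-coding by the deposited table. Of the 6, 3 rose and none fell with the knockdown in each treatment. With cisplatin 2 rose and 1 fell in shControl cells, while 1 rose and 1 fell in shZDHHC8 cells. All tested genes rose in 26.7% and 33.8% of cases with the knockdown and in 36.8% and 36.9% with cisplatin. They fell in 25% and 27.6% of cases with the knockdown and in 25.4% and 13.6% with cisplatin. The list linked to DNA damage and p53 held 4 tested lncRNAs, 3 of them members. Of the 4, 1 rose and 2 fell with cisplatin in shControl cells, and 2 rose and none fell in shZDHHC8 cells. With the knockdown 2 rose and 1 fell in each treatment.

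NORAD, whose Pumilio elements are shown above, measured 56.2 and 60.1 FPKM in shControl vehicle, 86.2 and 88.2 in shZDHHC8 vehicle, 48.7 and 47.8 in shControl cisplatin and 97.8 and 104 in shZDHHC8 cisplatin libraries. The 4 groups did not overlap and stood in the order shControl cisplatin, shControl vehicle, shZDHHC8 vehicle and shZDHHC8 cisplatin. It was higher in shZDHHC8 cells by 0.58 ± 0.051 (limma adjusted p = 3.48e-05) in vehicle and 1.05 ± 0.051 (limma adjusted p = 1.24e-06) under cisplatin. Cisplatin lowered it in shControl cells (-0.26 ± 0.051, limma adjusted p = 0.0019) and raised it in shZDHHC8 cells (0.21 ± 0.051, limma adjusted p = 0.00942), and the interaction was 0.47 ± 0.073 (limma adjusted p = 0.00224). The rise in shZDHHC8 cells was not called without shZDHHC8 cisplatin replicate 2 (adjusted p 0.0751). PUM2 measured 21.3 and 21.04 FPKM in shControl vehicle, 24.05 and 26.3 in shZDHHC8 vehicle, 18.9 and 18.6 in shControl cisplatin and 26.2 and 27.3 in shZDHHC8 cisplatin libraries, and rose with the knockdown by 0.24 ± 0.057 (limma adjusted p = 0.00775) in vehicle and 0.49 ± 0.057 (limma adjusted p = 0.000109) under cisplatin. The group means of PUM2 had the order of those of NORAD, with the shZDHHC8 groups overlapping.

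Of the microRNA hosts, MIR22HG measured 7.72 and 8.04 FPKM in shControl vehicle, 8.24 and 9.21 in shZDHHC8 vehicle, 4.54 and 4.66 in shControl cisplatin and 9.71 and 8.61 in shZDHHC8 cisplatin libraries. It fell with cisplatin in shControl cells (-0.67 ± 0.078, limma adjusted p = 9.64e-05) and was not called in shZDHHC8 cells (0.06 ± 0.078, limma adjusted p = 0.528), with an interaction of 0.73 ± 0.11 (limma adjusted p = 0.00204). MIRLET7BHG measured 16.1 and 18.2 FPKM in shControl vehicle, 28.8 and 30.1 in shZDHHC8 vehicle, 13.3 and 15.1 in shControl cisplatin and 21.4 and 21.2 in shZDHHC8 cisplatin libraries and was higher in shZDHHC8 cells in vehicle (0.75 ± 0.076, limma adjusted p = 7.17e-05) and under cisplatin (0.55 ± 0.076, limma adjusted p = 0.000286). It fell with cisplatin in shZDHHC8 cells by 0.45 ± 0.076 (limma adjusted p = 0.0015) and in shControl cells by 0.25 ± 0.076 (limma adjusted p = 0.0177), the latter call ending without shControl vehicle replicate 2 or shControl cisplatin replicate 1 (adjusted p 0.131 and 0.122). MIR100HG, which holds the same let-7a, was called in no comparison, with 5.73 and 4.46 FPKM in shControl vehicle, 6.41 and 6.56 in shZDHHC8 vehicle, 7.67 and 5.68 in shControl cisplatin and 6.19 and 6.06 in shZDHHC8 cisplatin libraries. CYTOR and MIR4435-2HG, whose reads may be split between near-identical copies, were both lowest in shControl vehicle and highest in the shZDHHC8 groups. CYTOR (chromosome 2, 87454781 to 87636740, plus strand) measured 28.4 and 25.9 FPKM in shControl vehicle, 52.5 and 51.7 in shZDHHC8 vehicle, 39.6 and 40.1 in shControl cisplatin and 55.5 and 53.8 in shZDHHC8 cisplatin libraries, and rose with the knockdown by 0.92 ± 0.054 (limma adjusted p = 4.17e-06) in vehicle. MIR4435-2HG (chromosome 2, 111006015 to 111523376, minus strand) measured 23.2 and 19.8 FPKM in shControl vehicle, 42.98 and 51.1 in shZDHHC8 vehicle, 31.2 and 28.8 in shControl cisplatin and 45.5 and 50.2 in shZDHHC8 cisplatin libraries, and rose with the knockdown by 1.10 ± 0.10 (limma adjusted p = 3.94e-05) in vehicle. With cisplatin in shControl cells CYTOR rose by 0.54 ± 0.054 (limma adjusted p = 3.88e-05) and MIR4435-2HG by 0.47 ± 0.10 (limma adjusted p = 0.00316). With cisplatin in shZDHHC8 cells neither CYTOR (0.07 ± 0.054, limma adjusted p = 0.322) nor MIR4435-2HG (0.03 ± 0.10, limma adjusted p = 0.836) was called. LINC00472, named here after its values were seen because it holds miR-30a and miR-30c, fell with cisplatin in shControl cells (-0.38 ± 0.052, limma adjusted p = 0.000249) and was not called in shZDHHC8 cells (0.09 ± 0.052, limma adjusted p = 0.177). The list held 12 tested hosts in all, 5 of them members. Of these 12 hosts 3 rose and 6 fell with cisplatin in shControl cells, and 1 rose and 4 fell in shZDHHC8 cells. With the knockdown 3 of them rose and 2 fell in vehicle, and 5 rose and 3 fell under cisplatin. Of all tested genes 36.8% rose and 25.4% fell with cisplatin in shControl cells, and 36.9% rose and 13.6% fell in shZDHHC8 cells. With the knockdown 26.7% of all tested genes rose and 25% fell in vehicle, and 33.8% rose and 27.6% fell under cisplatin. Outside the members, MIR210HG, the hypoxia-linked host, measured 4.61 and 5.07 FPKM in shControl vehicle, 7.36 and 6.73 in shZDHHC8 vehicle, 0.803 and 0.989 in shControl cisplatin and 3.81 and 4.98 in shZDHHC8 cisplatin libraries. These values describe host transcripts, and mature microRNAs are not measured by such libraries.

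On chromosome 8, PVT1, CASC19 and CASC8 lie around MYC, an oncogene that encodes a transcription factor; CASC8 is named after its values were seen. MYC measured 33.7 and 33.2 FPKM in shControl vehicle, 36.5 and 33.9 in shZDHHC8 vehicle, 83.5 and 76.8 in shControl cisplatin and 44.97 and 41.96 in shZDHHC8 cisplatin libraries. MYC thus stood highest in shControl cisplatin libraries, as PVT1 and CASC19 did, with an interaction of -0.94 ± 0.087 (limma adjusted p = 0.000225) for MYC and -0.93 ± 0.12 (limma adjusted p = 0.000951) for PVT1. CASC8 had another order, with 2.53 and 2.11 FPKM in shControl vehicle, 6.96 and 9.59 in shZDHHC8 vehicle, 6.42 and 5.81 in shControl cisplatin and 15.1 and 15.4 in shZDHHC8 cisplatin libraries. It was higher in shZDHHC8 cells in vehicle (1.47 ± 0.13, limma adjusted p = 2.93e-05) and under cisplatin (1.19 ± 0.13, limma adjusted p = 6.42e-05), and its interaction was not called (-0.28 ± 0.18, limma adjusted p = 0.271).

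Further members have been studied in cancer or stress. ZEB1-AS1, from the start of the mesenchymal regulator ZEB1, measured 3.17 and 3.50 FPKM in shControl vehicle and 5.65 and 5.98 in shZDHHC8 vehicle libraries. Under cisplatin it measured 4.09 and 3.30 FPKM in shControl and 8.45 and 9.86 in shZDHHC8 libraries. It rose with the knockdown by 0.65 ± 0.10 (limma adjusted p = 0.00085) in vehicle and 1.12 ± 0.10 (limma adjusted p = 2.98e-05) under cisplatin. ZEB1 itself measured 11.3 and 11.8 FPKM in shControl vehicle and 12.4 and 12.6 in shZDHHC8 vehicle libraries. Under cisplatin ZEB1 measured 16.3 and 17.7 FPKM in shControl and 12.7 and 13.1 in shZDHHC8 libraries, against the direction of ZEB1-AS1. FGD5-AS1 measured 12.4 and 12.8 FPKM in shControl vehicle, 15.2 and 15.5 in shZDHHC8 vehicle, 9.38 and 8.13 in shControl cisplatin and 14.99 and 15.3 in shZDHHC8 cisplatin libraries. It fell with cisplatin in shControl cells (-0.48 ± 0.069, limma adjusted p = 0.000308) and rose with the knockdown under cisplatin (0.73 ± 0.069, limma adjusted p = 3.41e-05), while its rise in vehicle (0.26 ± 0.069, limma adjusted p = 0.0125) was not called without shControl vehicle replicate 1 or shZDHHC8 vehicle replicate 2 (adjusted p 0.0687 and 0.0557). LINC00511 fell with cisplatin in shControl cells by 0.47 ± 0.059 (limma adjusted p = 0.000157), from 12.7 and 13.8 to 9.44 and 9.18 FPKM, and was not called in shZDHHC8 cells (-0.01 ± 0.059, limma adjusted p = 0.895). LINC01116 fell with cisplatin in both backgrounds, by 0.57 ± 0.065 (limma adjusted p = 7.97e-05) in shControl and 0.46 ± 0.065 (limma adjusted p = 0.000617) in shZDHHC8 cells. LINC00963 rose with cisplatin in shZDHHC8 cells by 0.57 ± 0.071 (limma adjusted p = 0.000324) and fell with the knockdown in vehicle by 0.33 ± 0.071 (limma adjusted p = 0.00421). OIP5-AS1, the human counterpart of the conserved RNA cyrano, was called in no comparison, with values from 12.6 to 16.5 FPKM over the 8 libraries. NRAV, described as a regulator of antiviral genes, differed little between groups, with values from 7.00 to 9.70 FPKM. Its rise with the knockdown in vehicle (0.22 ± 0.080, limma adjusted p = 0.048) ended without any library other than shZDHHC8 vehicle replicate 1 (adjusted p 0.0581 to 0.284), and that under cisplatin (0.26 ± 0.080, limma adjusted p = 0.0205) without shControl cisplatin replicate 1 or either shZDHHC8 cisplatin library (0.0668 to 0.0939). LBX2-AS1, at the edge of the threshold, rose with cisplatin in shControl (0.30 ± 0.073, limma adjusted p = 0.00638) and shZDHHC8 cells (0.44 ± 0.073, limma adjusted p = 0.00121) and was not called for the knockdown. The list studied in cancer held 17 tested lncRNAs, 9 of them members. Of the 17, 5 rose and 7 fell with cisplatin in shControl cells, and 6 rose and 1 fell in shZDHHC8 cells. With the knockdown 7 rose and 4 fell in vehicle, and 10 rose and 2 fell under cisplatin. Of all tested genes 36.8% and 36.9% rose and 25.4% and 13.6% fell with cisplatin in the 2 backgrounds, and 26.7% and 33.8% rose and 25% and 27.6% fell with the knockdown in the 2 treatments. The list of lncRNAs that respond to signals or stress held 5 tested, of which only 2, MIR22HG and NRAV, are members. Of the 5, 5 rose with the knockdown under cisplatin and 3 in vehicle, with none falling. With cisplatin 2 fell and none rose in shControl cells, and 2 rose and 1 fell in shZDHHC8 cells. Under cisplatin 47.4% of all tested lncRNA rows rose with the knockdown.

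The RNA exosome degrades many lncRNAs in the nucleus. Of 19 genes for its subunits and nuclear adaptors, 9 rose and 2 fell with cisplatin in shControl cells, with a median of 0.2633, and 8 rose and none fell in shZDHHC8 cells, with a median of 0.1596. Of protein-coding genes with a mean of at least 5 FPKM 43.6% and 43.1% rose in these comparisons, so that the counts of rises are near the background. Of the same protein-coding genes 25.1% and 14.1% fell. Of all tested genes 36.8% and 36.9% rose and 25.4% and 13.6% fell. EXOSC2, a subunit, measured 13.6 and 13.5 FPKM in shControl vehicle and 24.5 and 24.1 FPKM in shControl cisplatin libraries. With the knockdown 6 of the 19 genes rose and 1 fell in vehicle, and 5 rose and 4 fell under cisplatin. Of all tested genes 26.7% rose and 25% fell with the knockdown in vehicle, and 33.8% rose and 27.6% fell under cisplatin. ZFC3H1, an adaptor of polyadenylated nuclear RNA to the exosome, measured 9.85 and 9.78 FPKM in shControl vehicle, 6.90 and 6.15 in shControl cisplatin and 10.6 and 9.87 in shZDHHC8 cisplatin libraries, and rose with the knockdown under cisplatin by 0.58 ± 0.068 (limma adjusted p = 0.000116). Whether these levels bear on the members was not tested.

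Members that start beside a protein-coding gene were examined with that gene. Of the 48 whose start lay within 2000 bases of a protein-coding start on the opposite strand, 35 rose and 5 fell with the knockdown under cisplatin, with a median of 0.6355, and 23 rose and 3 fell in vehicle, with a median of 0.2481. Of all 182 members 54.9% rose and 18.1% fell under cisplatin and 44.5% and 18.1% in vehicle, and of all tested genes 33.8% and 27.6%, and 26.7% and 25%. With cisplatin 11 rose and 12 fell in shControl cells and 24 rose and 4 fell in shZDHHC8 cells, where 36.8% and 36.9% of all tested genes rose and 25.4% and 13.6% fell. Across 49 such pairs with both genes tested, the log2 changes of member and partner were weakly related, with Pearson's r of 0.216 and 0.078 for cisplatin in shControl and shZDHHC8 cells and 0.299 and 0.264 for the knockdown in vehicle and under cisplatin. This is a description across gene pairs, which share libraries and may share reads. Of the 25 pairs with both genes called under the knockdown with cisplatin, 16 changed in the same direction.

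Individual pairs went both ways. ANKRD10 itself measured 276 and 286 FPKM in shControl vehicle, 157 and 151 in shZDHHC8 vehicle, 132 and 133 in shControl cisplatin and 152 and 159 in shZDHHC8 cisplatin libraries, also highest in shControl vehicle and lowest in shControl cisplatin libraries. ANKRD10-IT1 lies inside it on the same strand, so that their reads may mix. PAPLN, which AC004846.1 overlaps on the opposite strand, measured 39.5 and 39.8, 25.9 and 22.4, 16.8 and 14.8 and 13.9 and 14.4 FPKM in these groups, highest in shControl vehicle libraries like AC004846.1. APCDD1L fell with cisplatin in shControl cells by 0.95 ± 0.061 (limma adjusted p = 3.37e-06) and rose with the knockdown under cisplatin by 0.91 ± 0.061 (limma adjusted p = 5.70e-06), the directions of APCDD1L-DT. TBC1D22A, whose start lies 54 bases from that of AL118516.1, moved against it. It measured 7.52 and 7.44 FPKM with vehicle and 5.08 and 3.96 FPKM with cisplatin in shZDHHC8 cells, a change of -0.63 ± 0.094 (limma adjusted p = 0.000785), where AL118516.1 rose. PDE7B, which AL138828.1 overlaps, likewise fell with the knockdown in vehicle (-0.61 ± 0.10, limma adjusted p = 0.00138) where AL138828.1 rose (1.25 ± 0.065, limma adjusted p = 2.27e-06). BAIAP2 was not called with cisplatin in shControl cells (-0.01 ± 0.058, limma adjusted p = 0.932) where BAIAP2-DT fell, and NECTIN3 fell by 0.17 ± 0.054 (limma adjusted p = 0.0271) in shZDHHC8 cells where NECTIN3-AS1 fell by 1.31.

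Some members are neighbours of each other. LINC02474 and LINC01705 lie 25860 bases apart on opposite strands of chromosome 1. LINC02474 measured 89.8 and 92.6 FPKM in shControl vehicle, 72.5 and 64.9 in shZDHHC8 vehicle, 36.3 and 36.6 in shControl cisplatin and 48.6 and 50.5 in shZDHHC8 cisplatin libraries, while LINC01705 measured 2.73 and 2.06 FPKM in shControl vehicle, 12.9 and 11.6 in shZDHHC8 vehicle, 2.37 and 1.63 in shControl cisplatin and 11.8 and 12.6 in shZDHHC8 cisplatin libraries. In vehicle the knockdown lowered LINC02474 (-0.40 ± 0.058, limma adjusted p = 0.000506) and raised LINC01705 (1.97 ± 0.13, limma adjusted p = 7.79e-06). Under cisplatin it raised both, LINC02474 by 0.43 ± 0.058 (limma adjusted p = 0.000247) and LINC01705 by 2.15 ± 0.13 (limma adjusted p = 3.59e-06). LINC02864 lies 60460 bases from LINC02582 on chromosome 18. LINC02864, named after its values were seen, rose with cisplatin by 0.30 ± 0.10 (limma adjusted p = 0.0243) in shControl and 0.30 ± 0.10 (limma adjusted p = 0.0305) in shZDHHC8 cells. LINC02582 fell in the same comparisons by 0.68 ± 0.045 (limma adjusted p = 4.12e-06) and 0.42 ± 0.045 (limma adjusted p = 0.00016).

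For 3 members the replicates of a group differed by more than 2 times, and these are named after their values were seen. VIM-AS1, antisense to VIM, measured 1.65 and 10.9 FPKM in shControl vehicle, 15.7 and 1.23 in shZDHHC8 vehicle, 1.29 and 0.699 in shControl cisplatin and 2.90 and 9.50 in shZDHHC8 cisplatin libraries. Its high and low libraries fell on both hairpins and both treatments, and it was called in no comparison. AC016026.1 measured 12.9 and 12.2 FPKM in shControl vehicle, 11.3 and 1.88 in shZDHHC8 vehicle, 9.36 and 11.6 in shControl cisplatin and 1.20 and 2.96 in shZDHHC8 cisplatin libraries, with 1 shZDHHC8 vehicle library at the level of shControl cells. AC016876.3 measured 9.27 and 6.56 FPKM in shControl vehicle, 5.73 and 11.97 in shZDHHC8 vehicle, 9.84 and 10.7 in shControl cisplatin and 11.4 and 14.3 in shZDHHC8 cisplatin libraries and was called in no comparison. In all, 13 members had replicates that differed by more than 1.5 times in some group.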

How the data were processed

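Poly(A)-selected RNA of 143B cells was sequenced in 8 libraries, 2 in each of 4 groups, mapped to hg38 per the submitters' processing notes. The authors deposited 1 table of 21123 genes with a value per library, normalized by them to gene length and depth. The deposited table does not name this unit, taken here as FPKM from the values, and holds no read counts, so that depth is unknown. Column totals lay between 361060 and 391016. Aligner, annotation release and strandedness: not given in the sources used here.

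Groups were taken from the labels. A gene was tested when 2 or more libraries reached 1 FPKM, which kept 13495, and 402 genes were 0 in every library. Values were transformed as log2(FPKM + 1) and fitted with limma 3.58.1 in R 4.3.3 with a mean per group and an intensity trend, with 4 residual and 4.64 prior degrees of freedom. In all, 5 contrasts were tested two-sided and adjusted by Benjamini-Hochberg over all tested genes at 0.05, which "called", "rose" and "fell" refer to, and ± is the standard error of a log2 change. The fit was tested on simulated data. Tables and plots were made with Python 3.11.15, pandas 2.3.3, numpy 2.4.6 and matplotlib 3.10.9.

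The members, the gene lists and the tests were chosen with earlier results of these data known. Named were the 12 members with the highest mean, the 5 largest rises and falls per contrast among called members that moved the same way in all 4 pairs of libraries (for the interaction, called ones), the members in the lncRNA lists, and the 3 genes on each side of the threshold. Protein-coding partners are given beside some of them only, and other names are marked where they appear. Sequences came from RefSeq (GRCh38.p14) and GENCODE 29. Alternatives covered scaling, filter, pseudocount, variance prior, threshold, member rule, single libraries and a replicate block.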

Additional observations from a re-analysis of the deposited data

Results flagged for a closer look

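The cisplatin response differed between shControl and shZDHHC8 cells, by the interaction test of the limma fit, for 33 of the named members. The values are the log2 change with cisplatin in shZDHHC8 cells minus that in shControl cells, each with a Benjamini-Hochberg adjusted p under 0.05. They were below 0 for CASC19 (-1.64), AL669830.2 (-1.25), SFTA1P (-1.23), PVT1 (-0.93), AL138828.1 (-0.88), LINC00973 (-0.86), AC004870.2 (-0.78), AC008736.1 (-0.72), NECTIN3-AS1 (-0.51), CYTOR (-0.47), MIR4435-2HG (-0.44) and AL137800.1 (-0.22). They were above 0 for LINC02432 (1.28), AC004846.1 (1.08), ANKRD10-IT1 (1.01), AC012306.2 (0.92), AC105460.1 (0.92), LINC02474 (0.84), AL118516.1 (0.84), LINC02167 (0.81), BAIAP2-DT (0.75), MIR22HG (0.73), AL161431.1 (0.49), MALAT1 (0.49), NORAD (0.47), FGD5-AS1 (0.47), AL713998.1 (0.47), ZEB1-AS1 (0.46), LINC00963 (0.46), LINC00511 (0.46), APCDD1L-DT (0.45), IGFL2-AS1 (0.30) and LINC02582 (0.26). LINC00973 lies on the first side because it rose more in shControl cells, and LINC02582 on the other because it fell more there.

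Some of these calls ended when a library was left out. The call of MALAT1 ended without any library other than shZDHHC8 vehicle replicate 2 (adjusted p 0.0514 to 0.135), and that of AL137800.1 without any other than shControl cisplatin replicate 1 (0.078 to 0.139). MIR4435-2HG lost it without each of 6 libraries, the exceptions being shControl vehicle replicate 1 and shZDHHC8 vehicle replicate 1 (0.0579 to 0.136). ZEB1-AS1 lost it without each of 6, the exceptions being replicate 1 of both cisplatin groups (0.0612 to 0.135). IGFL2-AS1 lost it without each of 6, the exceptions being shControl vehicle replicate 2 and shZDHHC8 vehicle replicate 2 (0.0628 to 0.112). AC004870.2 lost it without either shControl cisplatin library, either shZDHHC8 vehicle library or shZDHHC8 cisplatin replicate 2 (0.0508 to 0.0868). LINC02582 lost it without shControl vehicle replicate 2 or either shZDHHC8 cisplatin library (0.0515 to 0.0578).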

How the results depend on the processing

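No called change of a named member reversed under any alternative, and 143 of 173 kept their call without each library in turn. Without 1 library, the members called higher and lower numbered 59 to 64 and 36 to 44 for cisplatin in shControl cells, 62 to 82 and 16 to 20 in shZDHHC8 cells, 65 to 83 and 27 to 36 for the knockdown in vehicle, 89 to 101 and 27 to 34 under cisplatin, and 30 to 39 and 14 to 18 for the interaction. In the same order of comparisons, an added threshold of 1 on the absolute log2 change left 11 and 5, 5 and 2, 13 and 3, 21 and 4, and 3 and 3. A mean of at least 10 FPKM (72 members) gave 33 and 23, 33 and 9, 37 and 14, 43 and 15, and 21 and 13. A mean of at least 2 (464 members) gave 130 and 105, 175 and 45, 166 and 81, 238 and 76, and 92 and 31. The 55 members that overlap no other gene gave 17 and 15, 26 and 6, 23 and 11, 30 and 10, and 18 and 7. These counts differ because the number of members or the threshold does. The 119 members with every group mean at 5 or more, an alternative chosen after seeing the data, gave 44 and 28, 49 and 11, 51 and 20, 63 and 23, and 26 and 16, and leaving out the 3 members with discordant replicates, also chosen then, kept each count within 1.5 times. Median-of-ratios scaling moved cisplatin in shZDHHC8 cells to 50 and 32, and its share of rises among the calls from 79.8% to 61%, and that of the interaction from 66.1% to 52.5%. It ended 13 of the 173 named calls, against 7 with a common total, 8 with no filter, 6 with no intensity trend and 2 with a pseudocount of 0.1. The cause of the shift was not tested.

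With the replicate number as a block, 65 and 43, 77 and 21, 79 and 35, 102 and 34, and 38 and 18 members were called. The numbers are not shown to pair the libraries, since the deviations of replicate 1 from its group mean correlated between groups with r of -0.0515 to 0.0198. With 2 libraries per group and unknown depth, no limit of detection can be given for members near 5 FPKM.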
